A study of Mus musculus with 6 samples.

Results

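Binding of OCT4 and NANOG was examined by ChIP-Seq in sorted mouse embryonic stem cells (ESCs) around 6 genes that encode transcription factors of naive pluripotency, *Tcfcp2l1*, *Zfp42*, *Tbx3*, *Prdm14*, *Nr5a2* and *Nr0b1*. Every bound region within 20 kb of an annotated gene body was taken, which gave 29 of the 23767 distinct regions in the deposited lists, at 6 of 22380 protein-coding genes. The cells were the clonal reporter line E-GFPd1 (labelled Esrrb-2a-GFPd-IBIH), E14Tg2a ESCs that express a destabilised GFP from the *Esrrb* locus, cultured in LIF and serum, fixed, and sorted into Esrrb-GFP high (the top 10%), Esrrb-GFP medium (the 15% next to the negative gate) and Esrrb-GFP negative fractions. All fractions come from this 1 line without treatment and carry the same reporter, so no genotype or agent separates them. The cells were sorted in several batches whose chromatin was pooled. Each factor and fraction has 1 library, made from 3 pooled ChIPs, so there is no spread between replicates and no test between fractions. The source field of the labels calls the last fraction low, while its title and fraction label call it negative.

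Naive pluripotency is the state of the pre-implantation epiblast, held in culture by a network of transcription factors that bind shared enhancers together with OCT4 and NANOG. TFCP2L1, a factor of the Grainyhead family, and TBX3, a T-box factor, act downstream of LIF. ZFP42 (also named REX1) is a zinc finger protein widely used to mark the naive state, and PRDM14 holds back FGF signalling and DNA methyltransferases. NR5A2 and NR0B1 are orphan nuclear receptors, of which NR0B1 (DAX1) lacks the usual DNA-binding domain and acts through partner proteins. The lists record where OCT4 and NANOG bound near these genes and not how much of each factor was made, so no expression marker of cell identity could be read from them.

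Only coordinates were deposited for the regions, without a measure of peak strength, so depth is unknown. The lists hold 12449, 14464 and 10369 OCT4 regions and 9425, 4729 and 286 NANOG regions in Esrrb-GFP high, medium and negative cells. A region absent from a list was either not called or kept under 50% of the strongest depth-normalized signal it had in any dataset, which the authors counted as lost, so absence does not mean an absence of binding. "Bound" and "lost" are used in that sense. Shares are followed by 95% Wilson intervals, which cover counting error over regions and neither cultures nor ChIPs.

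At the 6 genes together OCT4 occupied 13 regions in Esrrb-GFP high cells, 16 in medium cells and 7 in negative cells. NANOG occupied 14, 5 and 0 regions. *Tcfcp2l1*, *Zfp42* and *Prdm14* carried the regions that lost both factors, whereas *Tbx3* and *Nr5a2* each kept 1 OCT4 region throughout, and *Nr0b1* had no OCT4 region at all. OCT4 was listed in some fraction at 22 of the 29 regions, 75.9% against 77% of all regions, and NANOG at 14, 48.3% against 40.7%, and 6 had both in Esrrb-GFP high cells.

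**Figure D1:**
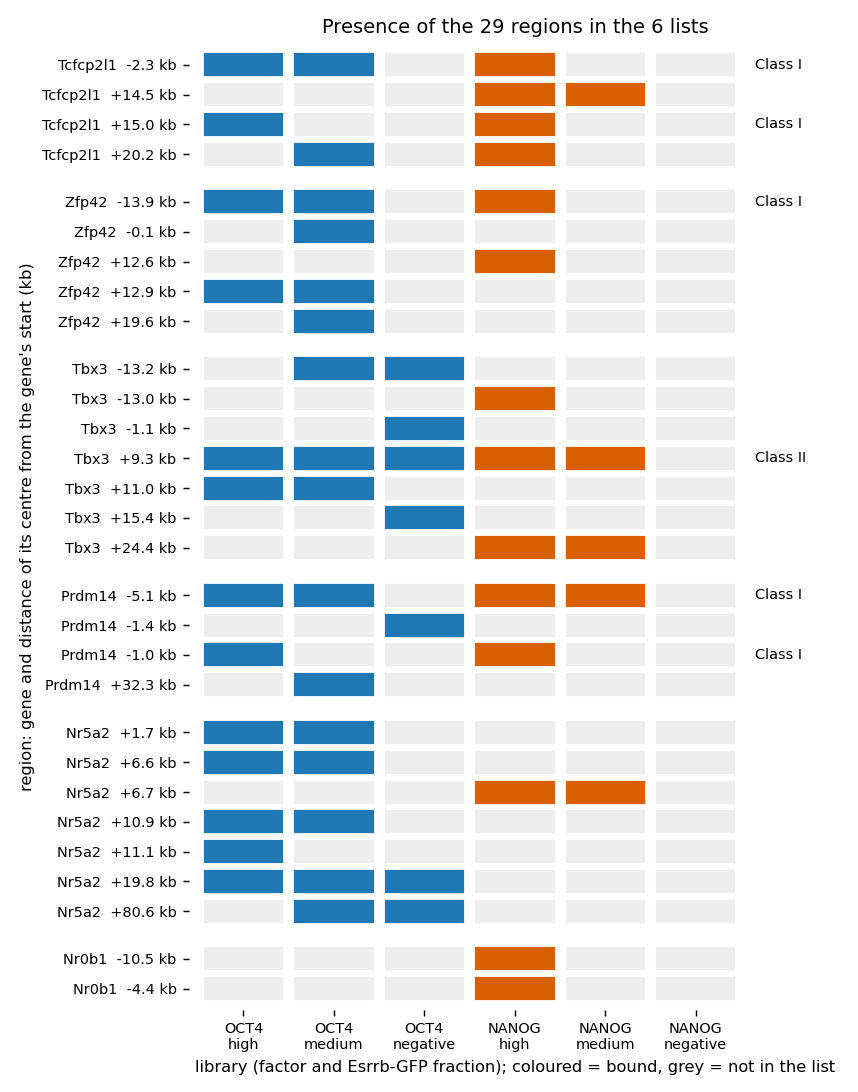
Presence of the 29 regions, 1 per row, in the 6 libraries, 1 per column, with blue for OCT4, orange for NANOG and grey for a region absent from that list. Rows give the gene and the distance of the region's centre from the gene's start along its strand. The NANOG negative column is empty, and 7 of the 29 rows are filled in the OCT4 negative column.

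All 6 genes had a region of some list within 20 kb, which was so for 46.4% of protein-coding genes. An OCT4 region of Esrrb-GFP high cells lay within that distance of 5 of the 6 (31.5% of protein-coding genes), and a NANOG region of high cells of all 6 (23.3%). An OCT4 region of Esrrb-GFP negative cells lay near 3 of the 6 genes, *Tbx3*, *Prdm14* and *Nr5a2* (28.4% of protein-coding genes), and at *Prdm14* it was not one of those listed in high cells. Class I regions, which OCT4 and NANOG share in high cells and both leave in negative cells, lay near 3 genes, *Tcfcp2l1*, *Zfp42* and *Prdm14* (6.97%). A Class II region, bound by both in high cells and by OCT4 without NANOG in negative cells, lay near 1 gene, *Tbx3* (5.02%).

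The number of regions per gene ran from 2 at *Nr0b1* to 7 at *Tbx3* and *Nr5a2*. Of all protein-coding genes, 1.63% had 7 or more, 3.95% had at least the 5 of *Zfp42*, 6.94% had at least the 4 of *Tcfcp2l1* or *Prdm14*, and 23.9% had 2 or more. The windows were 44184 to 156844 bp long, and per 100 kb of window the order changed. *Tbx3* then stood highest with 12.9 regions, followed by *Zfp42* with 9.63 and *Prdm14* with 7.45, while *Nr0b1*, *Nr5a2* and *Tcfcp2l1* had 4.53, 4.46 and 4.11. The median protein-coding gene had 0 regions.

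**Figure D2:**
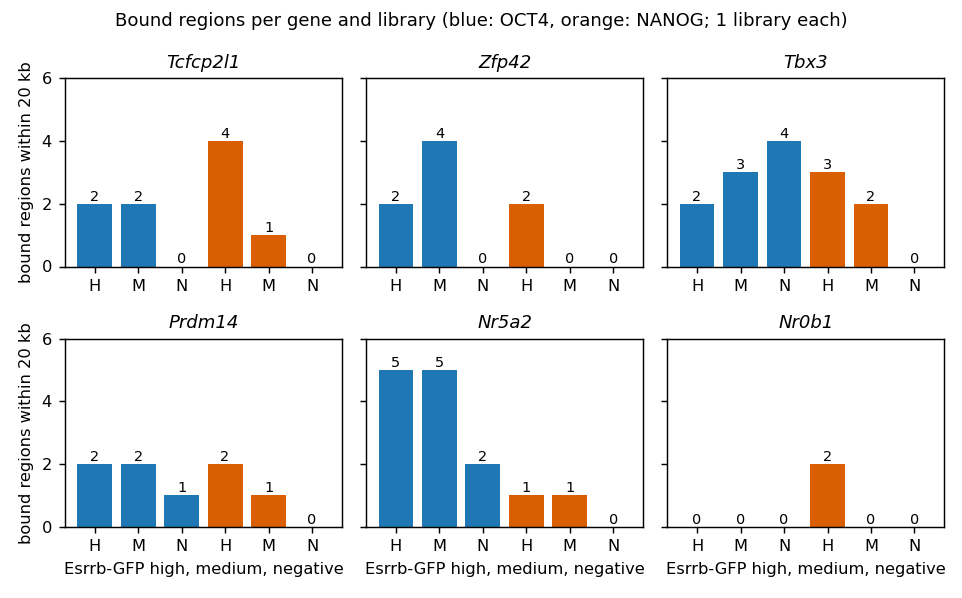
Bound regions within 20 kb of each gene (vertical axis) in Esrrb-GFP high (H), medium (M) and negative (N) cells, blue for OCT4 and orange for NANOG, with 1 library per bar and so no error bar. OCT4 counts fall to 0 in negative cells at Tcfcp2l1 and Zfp42 and rise from 2 to 4 at Tbx3.

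*Tcfcp2l1* (ENSMUSG00000026380, plus strand of chromosome 1, 120524522 to 120581744, assembly mm9) had 4 regions, and NANOG occupied each of them in Esrrb-GFP high cells. From high over medium to negative cells its OCT4 count was 2, 2 and 0 and its NANOG count 4, 1 and 0. Both OCT4 regions of high cells were Class I, and they left the OCT4 lists at different fractions. At the upstream region, 120522152 to 120522371, whose centre lies 2260 bp before the gene's start, OCT4 was still listed in Esrrb-GFP medium cells after NANOG had gone. At the intronic region 14990 bp after the start, 120539332 to 120539691, neither factor was listed beyond high cells. The sequence of the central 200 bases of these regions follows, on the plus strand and 5′ to 3′, since they show a Class I region that held OCT4 in medium cells beside one that did not. Capitals mark matches to the motifs searched, and neither window has one.
Tcfcp2l1 upstream (chr1:120522162-120522361): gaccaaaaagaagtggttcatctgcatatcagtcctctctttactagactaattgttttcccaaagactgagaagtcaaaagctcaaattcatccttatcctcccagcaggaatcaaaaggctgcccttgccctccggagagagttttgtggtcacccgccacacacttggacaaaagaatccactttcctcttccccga
Tcfcp2l1 intron (chr1:120539412-120539611): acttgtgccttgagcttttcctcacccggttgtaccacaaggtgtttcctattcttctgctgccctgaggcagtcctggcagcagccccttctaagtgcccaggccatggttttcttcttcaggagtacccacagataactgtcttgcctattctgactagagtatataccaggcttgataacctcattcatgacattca

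Only 200 bp of unlisted sequence separated the intronic Class I region from a NANOG region at 120538992 to 120539131, which was bound in high and medium cells and never by OCT4. The remaining region, 120544652 to 120544851, also in an intron, had NANOG in high cells and OCT4 in medium cells only. That combination was rare, at 0.568% of all 23767 regions. At no *Tcfcp2l1* region was either factor listed in negative cells. The upstream region also lies within 20 kb of *Clasp1*, a gene of microtubule dynamics, but *Tcfcp2l1* is the closer gene.

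*Zfp42* (ENSMUSG00000051176, minus strand of chromosome 8, 44380422 to 44392363) had 5 regions, with OCT4 at 2 in high, 4 in medium and 0 in negative cells. NANOG was bound at 2 regions in high cells and at 0 in the other fractions. Medium cells thus had the most OCT4 regions and negative cells had none. The region over the gene's start, 44392352 to 44392671, was listed in a single library, OCT4 of Esrrb-GFP medium cells. Of the 29 regions, 5 have their centre within 1 kb of some annotated start of their gene, a count not made over all regions. The *Zfp42* region alone lies within 1 kb of the 5′ end of its gene. That is 3.45% of the 29, against 4.73% of all regions within 1 kb of a protein-coding gene's start. All regions, unlike the 29, include those far from any gene. Its window is shown because it held a match to every motif searched.
Zfp42 promoter (chr8:44392412-44392611): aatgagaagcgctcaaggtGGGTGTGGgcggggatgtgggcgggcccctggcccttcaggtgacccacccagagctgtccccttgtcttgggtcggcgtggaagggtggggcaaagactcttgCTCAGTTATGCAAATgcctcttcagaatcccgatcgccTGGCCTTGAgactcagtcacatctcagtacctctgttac

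The 4 motifs were the octamer ATGCAAAT, the longer Oct-Sox composite with up to 2 mismatches, the ESRRB motif TCAAGGTCA with up to 1 mismatch, and GGGCGTGG or GGGTGTGG for KLF factors, each on both strands. Counted from 1 at the left end of the window above, the *Zfp42* promoter has a KLF match at bases 20 to 27, an Oct-Sox match at 124 to 137, an octamer at 131 to 138 and an ESRRB match on the minus strand at 162 to 170. The Oct-Sox composite ends in most of an octamer, so these matches overlap. Of the other 4 *Zfp42* regions, the widest of all 29 at 480 bp, 44406072 to 44406551, was Class I and lies 13949 bp upstream. NANOG was listed there in high cells and OCT4 in high and medium cells.

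Downstream of *Zfp42*, a NANOG region of high cells, 44379712 to 44379851, and an OCT4 region of high and medium cells, 44379372 to 44379471, lay 240 bp apart. The OCT4 region carried an octamer. The last region, 44372712 to 44372751, was listed for OCT4 in medium cells only, as the promoter region was. The counts of *Zfp42* in the 6 libraries, 2, 4, 0, 2, 0 and 0, were most like those of *Krtap13-1*, a keratin-associated protein gene, with 2, 3, 0, 2, 0 and 0, a summed difference of 1 over the 6 libraries. That gene was the closest of 10384 protein-coding genes with a region, and the likeness is one of counts only. *Tbx3* and *Nr5a2* also had genes at a summed difference of 1, with 5 tied for each, which are not named.

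*Prdm14* (ENSMUSG00000042414, minus strand of chromosome 1, 13103538 to 13117244) had 4 regions, with OCT4 at 2, 2 and 1 and NANOG at 2, 1 and 0 in high, medium and negative cells. Both regions of high cells were upstream of the gene, bound by both factors, and Class I. At 13122232 to 13122371, centred 5058 bp upstream, OCT4 and NANOG were both still listed in medium cells, the only Class I region of the 5 that kept NANOG there. At 13118112 to 13118391, centred 1008 bp upstream, both factors were listed in high cells alone. Next to it, after a gap of 100 bp, a region from 13118492 to 13118831 was listed for OCT4 in negative cells alone. The windows of this pair are shown because OCT4 was called on either side of the gap in opposite fractions.
Prdm14 proximal, high only (chr1:13118152-13118351): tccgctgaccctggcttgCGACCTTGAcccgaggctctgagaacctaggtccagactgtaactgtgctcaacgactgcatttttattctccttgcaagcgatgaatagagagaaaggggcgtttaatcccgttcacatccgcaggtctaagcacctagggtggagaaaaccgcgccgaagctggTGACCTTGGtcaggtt
Prdm14 proximal, negative only (chr1:13118562-13118761): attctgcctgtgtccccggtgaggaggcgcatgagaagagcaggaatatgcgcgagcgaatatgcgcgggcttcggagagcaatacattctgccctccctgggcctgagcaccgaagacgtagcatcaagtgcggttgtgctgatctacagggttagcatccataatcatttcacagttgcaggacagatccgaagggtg

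The first window had 2 ESRRB matches, at bases 19 to 27 and 185 to 193 on the minus strand, and the second had no match to any of the motifs. They also had the most CpG dinucleotides of the 29 windows, 11 and 12. If regions within 500 bp are joined, this pair becomes a single region bound by OCT4 in high and negative cells, and its Class I call becomes Class II. The last region, 13084852 to 13085031, was listed for OCT4 in medium cells only, 18506 bp from the gene body, the farthest of the 29. Of the regions just outside the limit, the nearest was at 22078 bp, beside *Tbx3*, with OCT4 in medium and negative cells. The next one at *Prdm14*, 28326 bp away, was Class II. The 3 upstream *Prdm14* regions also lie within 20 kb of *Ncoa2*, a nuclear receptor coactivator gene, but closer to *Prdm14*.

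*Tbx3* (ENSMUSG00000018604, plus strand of chromosome 5, 120120678 to 120134733) was the only one of the 6 genes with more OCT4 regions in negative than in high cells. OCT4 was bound at 2, 3 and 4 of its 7 regions in high, medium and negative cells, and NANOG at 3, 2 and 0. The intronic region 120129812 to 120130231, centred 9344 bp after the gene's start and 236 bp from the start of a shorter annotated transcript, was the single Class II region of the 29. OCT4 was listed there in the 3 fractions and NANOG in high and medium cells. Its central window is shown as the only co-bound region that kept OCT4, and it had no motif match.
Tbx3 intron, Class II (chr5:120129922-120130121): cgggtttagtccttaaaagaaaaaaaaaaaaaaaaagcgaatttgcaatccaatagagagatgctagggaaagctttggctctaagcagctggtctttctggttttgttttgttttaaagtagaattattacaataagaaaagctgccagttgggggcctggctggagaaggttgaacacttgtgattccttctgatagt

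Further OCT4 regions around *Tbx3* were absent from the high list. One at 120119592 to 120119651, centred 1056 bp upstream, and one at 120136012 to 120136051, downstream, were listed in negative cells only. A region at 120107492 to 120107551, centred 13156 bp upstream, was listed for OCT4 in medium and negative cells. A NANOG region of high cells, 120107572 to 120107831, began 20 bp beyond it, so NANOG was listed in high cells and OCT4 in the other fractions at the neighbouring interval. A second intronic OCT4 region, 120131652 to 120131711, was lost in negative cells, and a NANOG region at 120145052 to 120145111 was lost after medium cells. The upstream pair lies within 2 annotated noncoding transcripts, *Gm2301* and *Gm16064*.

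*Nr5a2* (ENSMUSG00000026398, minus strand of chromosome 1, 138740161 to 138857004) had OCT4 at 5 regions in high cells and 5 in medium cells, the most of the 6 genes in those fractions, and at 2 in negative cells. All 7 of its regions lay inside the gene. NANOG was bound at 1 region in high cells, at 1 in medium cells and at 0 in negative cells, and no *Nr5a2* region was bound by both factors in any fraction. It therefore had neither Class I nor Class II regions, although it lost 4 of its 5 OCT4 regions. The lost regions were 40 to 80 bp wide and lay in introns between 1702 and 11072 bp after the gene's start. Over all OCT4 regions of high cells, those lost and those kept in negative cells had the same median width, 100 bp. The kept *Nr5a2* region, 138837032 to 138837431, was 400 bp wide, overlapped a coding exon, and had OCT4 in the 3 fractions without NANOG. It is shown as the only OCT4 region of high cells, beside that of *Tbx3*, to reach the negative list.
Nr5a2 coding exon (chr1:138837132-138837331): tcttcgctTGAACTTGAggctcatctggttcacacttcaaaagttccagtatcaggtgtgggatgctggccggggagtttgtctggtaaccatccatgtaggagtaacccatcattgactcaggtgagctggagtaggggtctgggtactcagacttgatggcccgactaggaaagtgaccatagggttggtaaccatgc

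That window had an ESRRB match at bases 9 to 17 on the minus strand and no octamer or Oct-Sox match. An Oct-Sox match was found instead across the end of a lost region, 138850372 to 138850451. There OCT4 was listed in high and medium cells, and a NANOG region of the same fractions, 138850312 to 138850351, lay 20 bp away. This pair sits 205 and 125 bp from the second annotated start of the gene, that of the shorter transcript. Counted as joined, it would be a Class I region. The last region, 138776312 to 138776471, 80612 bp into the gene, was listed for OCT4 in medium and negative cells.

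*Nr0b1* (ENSMUSG00000025056, plus strand of chromosome X, 83437103 to 83441286) was the only gene of the 6 without OCT4. Its 2 regions, 83426552 to 83426591 and 83432732 to 83432771, were 40 bp wide, the narrowest width in the lists, and lay 10531 and 4351 bp upstream. NANOG was listed at both in Esrrb-GFP high cells and in no other fraction. The 200-base window around the nearer one had an ESRRB match, which lies outside the region itself. No further region of any list was found within 50 kb of the gene.

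**Figure D3:**
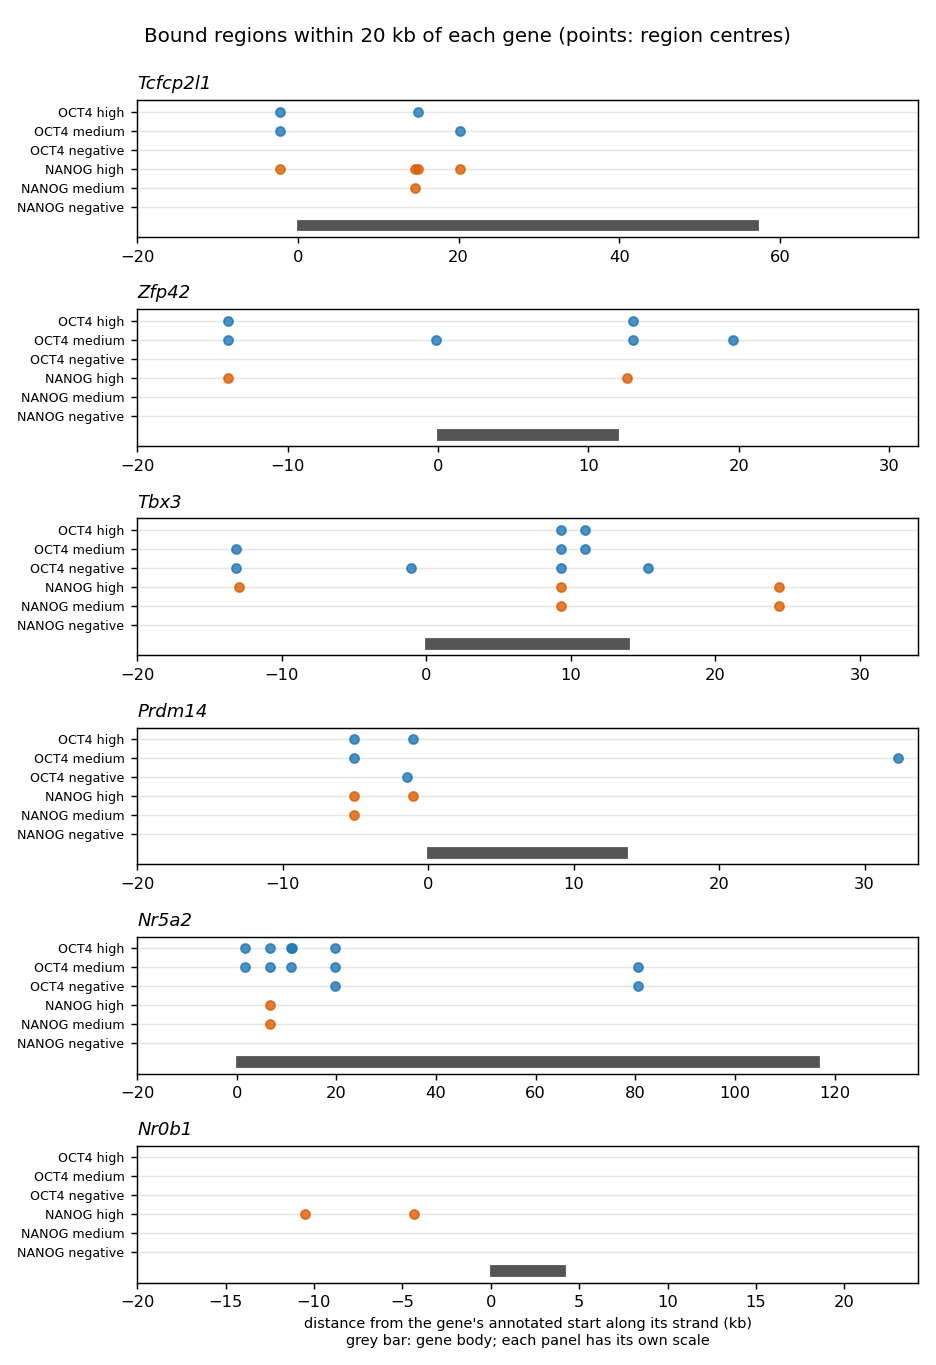
Positions of the bound regions along each gene, in kb from the annotated start along the gene's strand (horizontal axis, a separate scale per panel), with 1 row per library and the gene body as a grey bar. Points are region centres, blue for OCT4 and orange for NANOG. All Nr5a2 points lie within the gene, both Nr0b1 points lie upstream, and the closest points of Tbx3, Zfp42 and Prdm14 fall in different libraries.

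Over the 6 genes, 11 of the 13 OCT4 regions of high cells were lost in negative cells, 84.6% (57.8 to 95.7), where 45.1% (44.2 to 46.0) of all 12449 such regions were lost. The interval of the 6 genes lies above the genome-wide share, but regions of 1 gene share their locus and the interval treats them as independent, and with 1 library a fraction no test was made. When regions narrower than their list's median were dropped, 6 of 8 were lost, 75%, with an interval of 40.9 to 92.9 that held the share of all such regions, 45.7%. The loss was listed both with and without NANOG. At the 6 genes 5 of 6 OCT4 regions with NANOG in high cells were lost and 6 of 7 without it, and over all regions these shares were 55.8% and 40.6%. Of the 6 lost without NANOG, 4 were at *Nr5a2*. Moreover, 1 at *Nr5a2* and 1 at *Zfp42* lay 20 and 240 bp from a NANOG region of high cells. Joined with it, each becomes Class I, so this split rests on how the lists divide nearby intervals. Most of the 13 OCT4 regions of high cells were still listed in medium cells, where 3 were lost, 23.1% (8.18 to 50.3), close to the 21.3% of all regions. Those 3 were the *Tcfcp2l1* intronic, the *Prdm14* proximal and 1 *Nr5a2* region.

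NANOG was reduced in medium cells already. Of its 14 regions in high cells, 9 were lost in medium cells, 64.3% (38.8 to 83.7), against 52.3% of all regions, and all 14 were lost in negative cells, 100% (78.5 to 100), against 97.5%. The first interval holds the share of all regions, and in the second case nearly every NANOG region of the genome was lost. The 5 NANOG regions listed in medium cells were divided over *Tcfcp2l1*, *Tbx3*, *Prdm14* and *Nr5a2*, with 2 of them at *Tbx3*. *Zfp42* and *Nr0b1* lost NANOG by medium cells.

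Other OCT4 regions were listed outside high cells. In negative cells 5 of the 7 OCT4 regions had no counterpart in high cells, 71.4% (35.9 to 91.8), against 34.1% of all OCT4 regions of negative cells, a share just below the interval. With a distance of 5 kb, of 50 kb, with nearby regions joined, or without the narrower regions, the interval held the share of all regions. They were divided over *Tbx3* with 3, *Prdm14* with 1 and *Nr5a2* with 1. None had NANOG at the same interval in any fraction, as was so for 94.7% of all such regions. However, 1 at *Tbx3* and 1 at *Prdm14* lay 20 and 100 bp from a NANOG region of high cells. How often this was so over all such regions was not counted. In medium cells 6 of the 16 OCT4 regions were not listed in high cells, 37.5% (18.5 to 61.4), near the 32.3% of all regions. They included the *Zfp42* promoter.

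**Figure D4:**
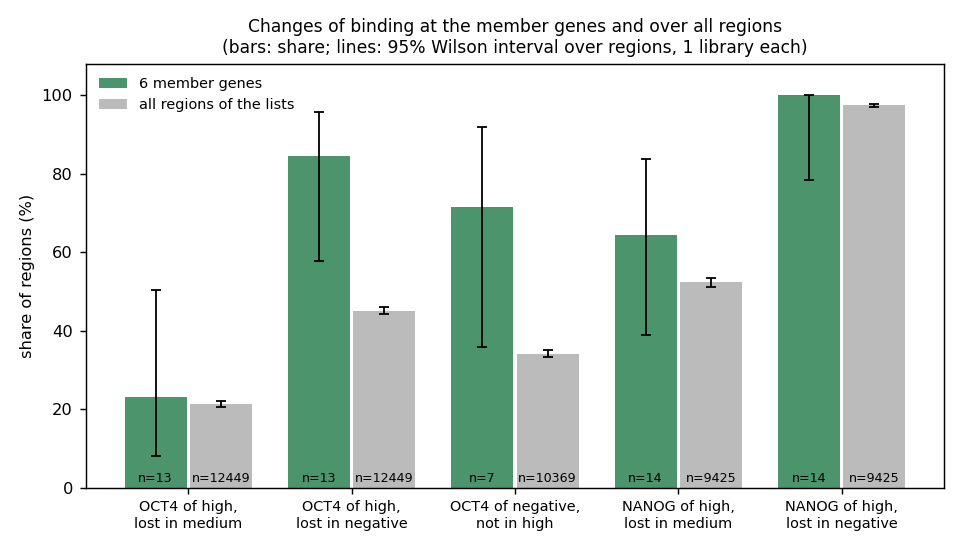
Share of regions (vertical axis, %) that changed between Esrrb-GFP fractions at the 6 genes (green) and over all regions of the lists (grey), with 95% Wilson intervals over regions as lines and the number of regions at the foot of each bar. The green bar for OCT4 lost in negative cells, 84.6%, has an interval from 57.8 to 95.7 above the grey bar of 45.1%, and that for OCT4 of negative cells not listed in high cells starts at 35.9, just above 34.1%, whereas the intervals for NANOG lost in medium cells and OCT4 lost in medium cells reach the grey bars.

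Of the 13 OCT4 regions of high cells, 6 also bound NANOG, 46.2% (23.2 to 70.9), against 29.5% of all. The 6 co-bound regions were 5 of Class I, 83.3% (43.6 to 97.0; 55.3% of all co-bound regions), and 1 of Class II, 16.7% (3.01 to 56.4; 42.6% of all). They were wide, with a median of 320 bp against 180 bp for all co-bound regions. Width comes from merging peaks over all datasets. The 29 regions as a whole had a median of 140 bp, against 80 bp for all.

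Some regions at these genes lay side by side. Of the 29, 12 had another listed region within 500 bp, 41.4%, against 18% of all regions, and 8 had one within 100 bp, 27.6% against 10.1%. The 12 form 6 pairs, 1 at each of *Tcfcp2l1*, *Zfp42*, *Tbx3* and *Prdm14* and 2 at *Nr5a2*. Shares with a neighbour were not counted around the comparison genes or at loci with as many regions. In 4 of the pairs, all but that of *Prdm14* and 1 of *Nr5a2*, a region bound by NANOG and never by OCT4 sat beside a region with OCT4. How often close pairs have this form over all regions was not counted, so it cannot be called a trait of these genes. Regions with OCT4 in no list made up 24.1% of the 29 and 23% of all regions. Whether such a pair is 1 element that the caller divided or 2 separate elements was not tested.

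By position 10 of the 29 regions were upstream, 6 downstream, 11 intronic, 1 in a coding exon and 1 over a gene's start. Inside the gene body lay 41.4%, against 40.3% of all regions with their centre in a protein-coding gene. These shares are not alike, since the 29 were taken for lying within 20 kb of a gene and all regions were not. The 29 were also counted by the whole region and for their own gene only. Each of the 29 regions had 1 of the 6 genes as its closest protein-coding gene. Motifs were counted in 200 bases around each centre, which is more than the whole region for 19 of the 29. An octamer or Oct-Sox match lay in 4 of the 29 windows, 13.8%, against 19% of all. None of those 4 was among the 6 co-bound or the 2 kept OCT4 regions. Over all co-bound and all kept OCT4 regions the shares were 21.2% and 29.3%, and 6 and 2 regions are too few to tell from these. ESRRB matches were present in 5, 17.2%, against 11.2%, and KLF matches in 5, 17.2%, against 4.17%, of which 2 are the same bases in overlapping *Nr5a2* windows. Matches wholly inside the listed region were found at 3 regions for octamer or Oct-Sox, at 4 for ESRRB and at 2 for KLF, and the *Nr5a2* KLF bases lie in neither region. A match is a description of the letters, and ESRRB and KLF binding were not measured.

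The same counts for related genes give the setting. Around the core factor genes *Pou5f1* and *Sox2*, 1 of 8 OCT4 regions of high cells was lost in negative cells, 12.5% (2.24 to 47.1), with 0 Class I and 5 Class II regions. Around *Klf2*, *Klf4* and *Klf5*, 5 of 6 were lost, 83.3% (43.6 to 97.0), with 2 Class I regions and 1 Class II region. Around 8 formative and primed genes, such as *Otx2* and *Fgf5*, 5 of 12 were lost, 41.7% (19.3 to 68.0), with 2 Class I and 4 Class II regions. Around 14 other genes of the naive network that could be matched, of 16 listed, 21 of 34 were lost, 61.8% (45.0 to 76.1), with 10 Class I and 7 Class II regions. The interval of the 6 genes overlaps those of the KLF, formative and other naive genes and lies above that of the core factors, and the differences were not tested, because each fraction has 1 library. The contrast with the core factors is also not independent of the paper. From these same libraries it names a *Tcfcp2l1* enhancer as an example of Class I and a *Sox2* enhancer as an example of Class II.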

How the data were processed

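Per the labels and the study's methods, the authors aligned reads to mm9 in GeneProf (the labels name Bowtie), called peaks with SISSRs and merged peaks of all datasets. A region was counted as lost from a dataset where under 50% of its strongest depth-normalized signal remained. The deposited files hold only the chromosome, start and end of the regions of each of 6 libraries, in an unscored list, so no count or signal enters any result.

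Intervals of different lists that overlapped by at least 1 bp were counted as 1 region. The lists hold 23767 distinct intervals, as many as there are regions, so intervals of different lists were either identical or apart. Genes came from GENCODE vM1 on NCBIM37, the assembly also named mm9. A region was assigned to a gene when it lay within 20 kb of its body. Python 3.11.15, numpy 2.4.6, scipy 1.17.1 and matplotlib 3.10.9 were used. The scripts recovered 11 of 11 known answers, set on 4781 simulated regions, on random windows with implanted motifs and on fixed inputs. The simulated regions were identical between lists or apart, so partial overlap was not tried. The genes and comparison lists were chosen with earlier results of these data known. The genes named are the 6 chosen, the comparison lists, neighbouring genes, and, by likeness, at most 3 genes tied at the smallest summed difference of counts per library. Alternatives were other distances, the list-median width, joining of regions within 500 bp, and other windows and mismatch limits for motifs. Further settings kept only regions whose closest protein-coding gene was a member, or required an overlap of 50% of both intervals.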

Additional observations from a re-analysis of the deposited data

Results flagged for a closer look

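From Esrrb-GFP high to medium cells the number of regions at the 6 genes rose by 3 in the OCT4 libraries, from 13 to 16, and fell by 9 in the NANOG libraries, from 14 to 5. The whole lists moved the same ways, from 12449 to 14464 OCT4 regions and from 9425 to 4729 NANOG regions. These opposite directions come from 1 library of each kind, and the difference between the factors was not tested. Neither library has a replicate or a read depth to set beside it.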

How the results depend on the processing

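Of 57 values recomputed under alternatives, 48 stayed within 1.5 times the reported count or inside the 95% interval of the reported share. That interval is wide at these numbers. Among the 48 are values that could not change and so say nothing on stability. Those of the closest-gene setting could not, since all 29 regions already had their gene as the closest. Those of the 50% overlap setting could not, since different intervals did not overlap. The OCT4 share lost in negative cells ranged from 75% to 84.6%, that of NANOG from 94.7% to 100%, the OCT4 share listed in negative but not high cells from 50% to 71.4%, and Class I from 4 to 7 regions. The lower limit of that last OCT4 share dropped to 30% at 5 kb and 31.3% at 50 kb (34.1% of all regions), 25% with regions joined (31.7%) and 15% without the narrower regions (38%). For OCT4 lost in negative cells the interval held the share of all regions only without the narrower regions, 40.9 to 92.9 against 45.7%. When regions narrower than the median width in their own list were dropped, 16 were left in place of 29. Class II regions numbered 2 rather than 1 with a distance of 50 kb and also with regions within 500 bp joined. Motif counts depended on the settings. With 50 bp either side of the centre ESRRB matches fell to 1 region (5.34% of all regions) and KLF matches to 3 (2.04%). With 250 bp either side, octamer or Oct-Sox matches rose to 7 (23.3%). With 1 more mismatch they rose to 9 (54.3%), ESRRB matches to 14 (50.9%) and KLF matches to 19 (37.7%). No paired analysis was possible because each factor and fraction has 1 library, and for the same reason no replicate could be left out. Without scores or read counts, a region near the threshold of the caller or of the 50% rule cannot be told from a strong one.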
